A study of Homo sapiens with 8 samples.

Results

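Antisense noncoding RNAs were taken from the count table as every gene symbol that ends in -AS followed by a number and has 15 or more reads in total over the 8 libraries. Of 149 such symbols among the 23368 in the table, 104 met this rule. The gene named before the hyphen is the sense partner, and it was used only as a reference. The libraries came from HEK293F, an established human embryonic kidney line, in which the level of the RNA helicase MOV10 had been changed. In 3 overexpression libraries the cells received a single transfection of a plasmid for myc-tagged MOV10, and in 2 knockdown libraries they received MOV10 siRNA 3 times at intervals of 24 h. The 3 control libraries came from cells given an irrelevant siRNA on the schedule of the knockdown cells, so overexpression and its control also differ in how the cells were transfected. Cells given an empty plasmid were not analysed here. All groups share the line, growth in DMEM with serum and stranded libraries made from 1 ug of total RNA.

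Antisense genes are transcribed from the strand opposite a named gene, and many of them start at or near the promoter of that gene and run away from it. Most of their RNAs are spliced and polyadenylated but code for no known protein, and many are kept scarce in the nucleus by early termination and by the nuclear RNA exosome. A few are known to change their partner in cis or to bind microRNAs and proteins in the cytoplasm. MOV10, a helicase, associates with FMRP, the fragile X protein, and with Argonaute proteins, and it acts on the stability of messenger RNAs.

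The 4 head-to-head pairs printed here come first because the RefSeq promoter windows of the antisense gene and of its partner share bases, while the reads of the members of a pair did not all move alike. Each window holds 250 bases before and 50 after the start of the antisense gene, on GRCh38.p14. It is printed 5' to 3' on the strand of the antisense gene, and the capitals mark the bases that also lie in the partner's window. The KCNJ2-AS1 window, chr17:70169353-70169652 on the minus strand, shares 229 bases with that of KCNJ2, and both genes rose with overexpression. RBM26-AS1, chr13:79406059-79406358 on the plus strand, shares 153 bases with RBM26, and both rose with knockdown. DICER1-AS1, chr14:95157438-95157737 on the plus strand, shares 258 bases with DICER1, and the antisense gene rose while DICER1 fell with overexpression. BOLA3-AS1, chr2:74147731-74148030 on the plus strand and named BOLA3-DT in RefSeq, shares 168 bases with BOLA3. KCNJ2 and DICER1 also fell with knockdown, and RBM26 also rose with overexpression, each without a call for its antisense gene there. BOLA3-AS1 fell with knockdown, where BOLA3 was not called, and BOLA3 fell with overexpression, where BOLA3-AS1 was not called.
KCNJ2-AS1: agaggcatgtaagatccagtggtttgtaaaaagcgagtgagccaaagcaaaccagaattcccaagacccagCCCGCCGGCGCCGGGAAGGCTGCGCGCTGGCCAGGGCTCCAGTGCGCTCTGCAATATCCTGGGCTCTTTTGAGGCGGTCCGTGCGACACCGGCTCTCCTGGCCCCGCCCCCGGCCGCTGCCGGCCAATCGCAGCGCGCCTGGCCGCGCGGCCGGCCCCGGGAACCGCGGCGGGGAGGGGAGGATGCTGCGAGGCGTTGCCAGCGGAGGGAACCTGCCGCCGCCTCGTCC
RBM26-AS1: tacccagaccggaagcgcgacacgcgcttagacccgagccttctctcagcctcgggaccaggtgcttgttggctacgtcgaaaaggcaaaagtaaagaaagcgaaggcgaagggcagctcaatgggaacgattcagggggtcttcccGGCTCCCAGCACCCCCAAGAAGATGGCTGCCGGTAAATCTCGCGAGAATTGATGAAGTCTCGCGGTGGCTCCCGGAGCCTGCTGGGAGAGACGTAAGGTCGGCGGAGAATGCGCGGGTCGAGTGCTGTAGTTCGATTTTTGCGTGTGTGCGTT
DICER1-AS1: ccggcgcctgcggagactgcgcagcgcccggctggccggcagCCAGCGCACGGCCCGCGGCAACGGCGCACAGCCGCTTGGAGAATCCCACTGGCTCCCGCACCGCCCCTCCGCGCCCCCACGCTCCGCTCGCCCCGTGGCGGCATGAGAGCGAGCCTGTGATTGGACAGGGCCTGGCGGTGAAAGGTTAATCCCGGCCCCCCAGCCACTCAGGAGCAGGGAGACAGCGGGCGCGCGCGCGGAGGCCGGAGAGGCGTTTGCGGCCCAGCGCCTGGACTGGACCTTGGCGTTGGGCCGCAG
BOLA3-AS1: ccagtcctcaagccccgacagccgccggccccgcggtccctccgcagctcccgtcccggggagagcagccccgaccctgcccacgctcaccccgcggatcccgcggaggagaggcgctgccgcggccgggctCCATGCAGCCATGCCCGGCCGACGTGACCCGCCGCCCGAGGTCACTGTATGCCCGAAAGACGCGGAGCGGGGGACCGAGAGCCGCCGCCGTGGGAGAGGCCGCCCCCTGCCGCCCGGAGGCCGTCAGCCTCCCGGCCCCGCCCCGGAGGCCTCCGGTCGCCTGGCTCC

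The printed windows hold 28 to 41 CG dinucleotides each. Over the 79 members with a RefSeq window the median was 22, against 14 over all 35116 windows of the table. Of the motifs searched on both strands, GGGCGG, the core of the GC box bound by Sp1-type factors, was in 46 of the 79 member windows (58.2%) and in 45.0% of all windows. TATAAA was in 4 of them (5.06%) and in 11.5% of all, CCAAT in 31.6% of member windows and 34.6% of all, CCGGAAG in 8.86% and 10.3%, and GAANNTTC in 5.06% and 6.77%. The palindrome known as the NRF1 motif was in 4 member windows (5.06%) and in 1.24% of all windows. A match is only a run of letters in the window, and no test was made. The members were chosen by their reads in these cells and the windows of the table were not, so the sets also differ in this. Member and partner windows lay on opposite strands for 59 pairs, and 15 of these shared between 39 and 261 bases. Of the 14 such members that could be tested, 3 rose and 1 fell with overexpression, where 25.2% of all genes were called higher and 24.1% lower, and 1 rose and 1 fell with knockdown, where 19.9% were called higher and 19.1% lower. The sign of the change was the same as the partner's in 6 of the 14 pairs with overexpression and in 7 with knockdown.

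MOV10 itself had 2971, 2916 and 2454 CPM (counts scaled to a library of 1000000 reads) in the overexpression libraries, 50.6 and 55.5 CPM in the knockdown libraries, and 76.8, 76.4 and 91.2 CPM in the control libraries. Its level thus followed the labels in every library. Total counts ran from 12.7 M to 23.4 M in overexpression, from 19.4 M to 32.8 M in knockdown and from 15 M to 22.7 M in control libraries. All 11 markers fixed for HEK293 cells exceeded 1 CPM in every library, whereas of 6 fibroblast markers only COL1A1 and LUM did, and none of the leukocyte, endothelial, hepatocyte or erythroid markers did. The summed HEK293 markers ran from 1631 to 1653 CPM in overexpression, from 1975 to 2044 CPM in knockdown and from 1758 to 1789 CPM in control libraries. The summed fibroblast markers ran from 61.6 to 69.1 CPM in overexpression, from 45.3 to 47.7 CPM in knockdown and from 61.9 to 67.6 CPM in control libraries. Their part in the results was not tested. The labels do not state whether replicate libraries are separate cultures, and p-values here cover only the spread between libraries, which may be technical. In bulk RNA a change in how many cells make a transcript and a change in its amount per cell cannot be told apart.

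The members were mostly scarce. Their total over all libraries had a median of 324.5 reads, with quartiles of 99.75 and 1192, and 27 members had 1000 reads or more. Together they took 0.194%, 0.197% and 0.191% of the counts of the overexpression libraries, 0.172% and 0.173% in knockdown, and 0.184%, 0.184% and 0.188% in control. In these shares of raw counts all 3 overexpression libraries lay above and both knockdown libraries below every control library. The CPM values use library sizes scaled by TMM factors, 1.02 to 1.03 in overexpression, 0.961 and 0.972 in knockdown, and 0.995 to 1.00 in control. On that scale both knockdown libraries still lay below every control, but overexpression 3 lay below control 3. C17orf76-AS1, FGD5-AS1, HNRNPU-AS1, TP73-AS1, ZNFX1-AS1 and MAGI2-AS3 held 71.1% of all member reads. The other 98 members took 0.0589%, 0.0609% and 0.0575% of the raw counts in overexpression, 0.0492% and 0.0493% in knockdown, and 0.0502%, 0.0507% and 0.0524% in control libraries. With the scaling used for CPM, the knockdown shares of these 98 lay within the range of the controls. At the threshold, FBXO22-AS1 was the last member inside with 16 reads and LY86-AS1, FAS-AS1 and MRVI1-AS1 followed with 19, while ABHD11-AS1 with 14 and NAV2-AS4 with 12 lay just outside.

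GENCODE 29 gave an annotation for 98 of the 104 members. It called 64 of them antisense, 17 processed transcripts, 10 lincRNAs, 3 transcribed unitary pseudogenes and 1 a bidirectional promoter lncRNA. The remaining 3, AATK-AS1, ATPAF1-AS1 and HOXB-AS5, are now annotated as protein coding. For 34 members the current name differs from the one in the table. ZNFX1-AS1 is now ZFAS1 and C17orf76-AS1 is SNHG29, both hosts of small nucleolar RNAs, so reads of the intronic RNAs may enter their counts. RefSeq lists HNRNPU-AS1 only as a synonym of HNRNPU, so it was given no position or length, and how its reads divide from those of HNRNPU is uncertain. A partner was in the table for 98 members, and 6 members named for HOX clusters had none. Of 92 pairs with both genes placed, 43 overlapped head to head and 11 faced each other without overlap. Another 20 overlapped tail to tail, 1 lay tail to tail apart, 11 members lay within the partner and 6 contained it. Exons overlapped in 66 of these pairs and not in 26. Over all 92 pairs, those without overlap included, the overlap had a median of 4.52% and a maximum of 74% of the antisense exons. The strand setting used in counting is not given in the sources used here, so in those pairs reads of the antisense gene and of its partner cannot be told apart with certainty.

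Per kb of annotated exon, antisense genes were usually far less abundant than their partners. In control libraries the level, as mean CPM per kb, could be set side by side for 86 pairs, and the antisense gene had a median of 8.29% of the partner's level. It was under 10% of the partner in 44 pairs and above the partner in 16. FGD5-AS1 had 60.8 CPM per kb against 0.43 for FGD5, a GTPase exchange factor of endothelial cells. C17orf76-AS1 had 153 CPM per kb against 1.49 for its partner, listed as FAM211A. MAGI2-AS3 had 5.16 against 0.353 for MAGI2, a scaffold protein of cell junctions, and ZNFX1-AS1 had 35.4 against 4.64 for ZNFX1, a helicase-like sensor of viral RNA. At the other end ENO1-AS1 had 2.1 CPM per kb against 401 for ENO1, the glycolytic enolase, or 0.514 antisense reads per 1000 reads of ENO1 over all libraries.

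Differences were tested in a single edgeR quasi-likelihood fit of all 15254 genes that passed a filter on low counts, and a gene was called where its Benjamini-Hochberg adjusted p lay below 0.05. This filter left 88 of the 104 members. The 16 others, with 16 to 79 reads in total and at most 21 in a library, were FBXO22-AS1, FAS-AS1, MRVI1-AS1, LY86-AS1, AATK-AS1, PCNA-AS1, JAZF1-AS1, GRIK1-AS1, IGF2-AS1, ATPAF1-AS1, MRPL23-AS1, RFPL1-AS1, HTT-AS1, PVRL3-AS1, DNAJC27-AS1 and CECR5-AS1. LY86-AS1 had 0, 0 and 1 reads in overexpression, 9 and 6 reads in knockdown, and 2, 1 and 0 reads in control libraries. PCNA-AS1, named for the sliding clamp of DNA replication, had 6, 5 and 1 reads in overexpression, 3 and 1 in knockdown, and 1, 2 and 2 in control libraries.

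With overexpression against control, 27 of the 88 tested members rose (30.7%) and 10 fell (11.4%), whereas over all genes 25.2% were called higher and 24.1% lower. The median log2 fold change was 0.22 over the members, 0.05 over their partners and 0.01 over all genes, and 60 members (68.2%) had a positive sign against 52.0% of all genes. Most of the members are scarce, and among scarce genes in general more rose than fell. Of the 61 tested members with under 1000 reads in total, 16 rose (26.2%) and 4 fell (6.56%). Over all genes under 1000 reads 25.9% were called higher and 8.57% lower, so the shares of the scarce members lay near the background. Of the 27 members with 1000 reads or more, 11 rose (40.7%) and 6 fell (22.2%), against 24.9% higher and 28.9% lower over all such genes. This split at 1000 reads was chosen after the values were seen. Among the 87 partners tested 24 rose and 20 fell. By arrangement, 16 of 48 head-to-head members rose and 3 fell, 5 of 19 tail-to-tail members rose and 5 fell, and 4 of 12 that lay within or around the partner rose and 1 fell.

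ST7-AS1, antisense to a candidate tumour suppressor, had 5.71, 7.21 and 6.9 CPM in overexpression and 2.62, 1.71 and 1.74 CPM in control libraries, so every overexpression library lay above every control. Its log2 fold change was 1.66 ± 0.17 (SE), with an edgeR adjusted p of 1.36e-07, and that of ST7 was -0.03 ± 0.06. KDM5B-AS1, known as PCAT6 and antisense to a histone H3K4 demethylase, had 2.29, 2.95 and 1.76 CPM in overexpression and 0.798, 1.09 and 1.27 CPM in control libraries. These groups did not overlap, and the log2 fold change was 1.23 ± 0.26 (edgeR adjusted p = 5e-04), while that of KDM5B was 0.11 ± 0.05 and was not called. TSC22D1-AS1, antisense to a leucine-zipper regulator, had 1.29, 1.07 and 1.38 CPM in overexpression and 0.488, 0.466 and 0.668 CPM in control libraries. Its change of 1.21 ± 0.29 came with one of 0.16 ± 0.05 in TSC22D1, and both were called.

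KCNJ2-AS1, head to head with the potassium channel gene KCNJ2 over the window printed above, had 2.58, 3.09 and 2.22 CPM in overexpression and 1.37, 1.35 and 0.935 CPM in control libraries. KCNJ2 had 9.46, 9.22 and 10.7 CPM in overexpression and 6.25, 6.26 and 5.94 CPM in control libraries. For both genes the groups were separate, with log2 fold changes of 1.10 ± 0.21 for KCNJ2-AS1 and 0.65 ± 0.10 for KCNJ2 (edgeR adjusted p = 0.000176 and 3.41e-05). ZEB1-AS1, antisense to a driver of the epithelial-mesenchymal transition, was the most precisely measured of the large rises. It had 31.7, 32.3 and 31.8 CPM in overexpression and 15.4, 16.5 and 17.8 CPM in control libraries, a change of 0.95 ± 0.07 (edgeR adjusted p = 3.5e-09). ZEB1 rose by 0.35 ± 0.06. CBR3-AS1 rose by 0.76 ± 0.16 and CBR3, a carbonyl reductase, by 0.73 ± 0.13. Other members that rose with a partner that rose were MFI2-AS1 (0.64 ± 0.11, with 0.89 ± 0.09 for MFI2, melanotransferrin), HLA-F-AS1 (0.45 ± 0.12, with 0.49 ± 0.10 for HLA-F), H1FX-AS1 (0.59 ± 0.10, with 0.20 ± 0.06 for the linker histone gene H1FX) and MAGI2-AS3 (0.25 ± 0.06, with 0.68 ± 0.09 for MAGI2).

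MLLT4-AS1, head to head with the gene of the junction protein afadin, had 7.09, 7.79 and 7.06 CPM in overexpression and 4.61, 4.04 and 3.87 CPM in control libraries. It rose by 0.80 ± 0.12 while MLLT4 changed by -0.02 ± 0.05. GCFC1-AS1 rose by 0.75 ± 0.10, THAP7-AS1 by 0.67 ± 0.12, MCF2L-AS1 by 0.61 ± 0.20, WDFY3-AS2 by 0.56 ± 0.16 and PAN3-AS1 by 0.41 ± 0.13, each with a partner that was not called. HOXB-AS3, transcribed in the HOXB cluster of homeobox genes that set position along the body axis, had 5.46, 5.86 and 5.91 CPM in overexpression and 3.5, 3.11 and 3.54 CPM in control libraries, a change of 0.76 ± 0.13. The snoRNA host ZNFX1-AS1 had 104, 109 and 102 CPM in overexpression and 77, 80.1 and 81.2 CPM in control libraries. Its change was 0.41 ± 0.05 (edgeR adjusted p = 1.72e-06), and that of ZNFX1 was -0.02 ± 0.07. EPB41L4A-AS1, which also hosts a small nucleolar RNA, rose by 0.37 ± 0.06 with EPB41L4A at 0.06 ± 0.08.

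Of the 27 members that rose, 3 had libraries that overlapped between the groups. C20orf166-AS1 had 0.375, 0.582 and 0.537 CPM in overexpression and 0.133, 0.155 and 0.401 CPM in control libraries (1.19 ± 0.48, edgeR adjusted p = 0.0407). Only overexpression 2 and 3 reached the level set by the filter on low counts. This gene was thus tested only through the group where it was high, and its call is not independent of the filter. KTN1-AS1 changed by 0.61 ± 0.20, with an edgeR adjusted p of 0.0141, and BDNF-AS1 by 0.59 ± 0.24, with one of 0.0498. In all, 10 of the 37 calls with overexpression were lost without 1 library, 6 of them upward. C20orf166-AS1 had an adjusted p of 0.182 without control 1, 0.128 without control 2, and 0.0511 and 0.0504 without knockdown 2 and 3. KTN1-AS1 had an adjusted p of 0.0881 without overexpression 1 and of 0.121 without control 1. BDNF-AS1 had an adjusted p of 0.179 and 0.0947 without overexpression 1 and 2, 0.0586 and 0.0562 without knockdown 2 and 3, and 0.0864 and 0.262 without control 1 and 2. SLC25A5-AS1 was called at 0.37 ± 0.15 (edgeR adjusted p = 0.0456). It was lost without overexpression 2 or 3, knockdown 2 or 3, or any control library, at adjusted p values from 0.0518 to 0.173. Without overexpression 1 the adjusted p was 0.0698 for MCF2L-AS1 and 0.0943 for PAN3-AS1, and without control 1 it was 0.102 for MCF2L-AS1 and 0.0692 for PAN3-AS1.

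**Figure D1:**
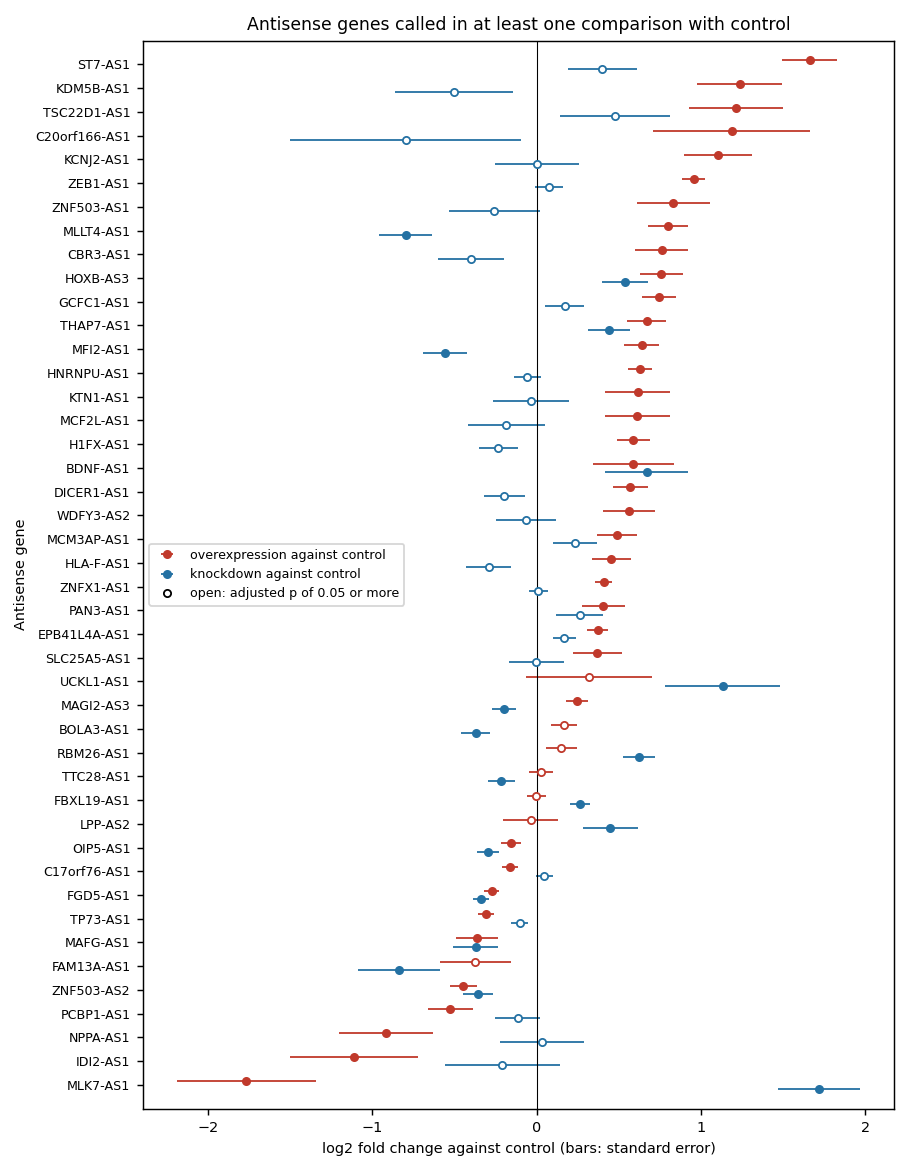
Log2 fold change against control (horizontal, with standard error bars) of the 44 antisense genes called in at least 1 comparison with control, overexpression in red and knockdown in blue, filled where called. ST7-AS1 stands at the top with 1.66, and MLK7-AS1 at the bottom with -1.76 in overexpression and 1.72 in knockdown.

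Among the 10 members that fell with overexpression, MLK7-AS1 had the largest change. It lies antisense to ZAK, the gene listed in the table for MLK7, a kinase of the ribosome stress response, and had 0.25, 0.179 and 0.23 CPM in overexpression and 0.532, 0.777 and 1.07 CPM in control libraries. The groups were separate at a log2 fold change of -1.76 ± 0.42 (edgeR adjusted p = 0.00144), and ZAK fell by 0.22 ± 0.05. FGD5-AS1 had 261, 264 and 249 CPM in overexpression and 313, 318 and 305 CPM in control libraries, a fall of -0.27 ± 0.05 with an edgeR adjusted p of 5.13e-05. TP73-AS1, now annotated as a pseudogene, had 137, 138 and 131 CPM in overexpression and 172, 164 and 166 CPM in control libraries. It changed by -0.31 ± 0.05, and TP73, of the p53 family, by -0.44 ± 0.07. Both were called, as were MAFG-AS1 (-0.36 ± 0.13) with MAFG (-0.35 ± 0.05), a small Maf transcription factor. ZNF503-AS2 changed by -0.45 ± 0.08 and the zinc finger gene ZNF503 by -0.67 ± 0.06.

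PCBP1-AS1 had 5.09, 7.65 and 5.68 CPM in overexpression and 9.75, 7.87 and 8.95 CPM in control libraries, a change of -0.52 ± 0.13, and PCBP1, a poly(C)-binding protein, was at -0.06 ± 0.05. OIP5-AS1, a cytoplasmic RNA known to bind the microRNA miR-7, had 43.6, 40.3 and 44.9 CPM in overexpression and 48.4, 49.2 and 45.4 CPM in control libraries. Its change was small, -0.16 ± 0.06, with an edgeR adjusted p of 0.0356. It was lost without overexpression 1 or 2, knockdown 3 or control 1 or 2, at adjusted p values from 0.0504 to 0.162. IDI2-AS1 changed by -1.11 ± 0.39 and NPPA-AS1 by -0.91 ± 0.29, beside partners at 0.222 CPM or less in every library. Without overexpression 1 their adjusted p was 0.147 for IDI2-AS1 and 0.0572 for NPPA-AS1, and without control 2 it was 0.0906 for IDI2-AS1 and 0.0602 for NPPA-AS1. MAFG-AS1 had an adjusted p of 0.123 without overexpression 2 and of 0.103 without control 2.

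In 5 pairs the antisense gene and its partner were both called in opposite directions with overexpression. DICER1 makes microRNAs and small interfering RNAs from double-stranded precursors. DICER1-AS1 had 11.8, 12.5 and 12.1 CPM in overexpression and 8.02, 7.51 and 9.22 CPM in control libraries, while DICER1 had 218, 193 and 223 CPM in overexpression and 246, 256 and 233 CPM in control libraries. Neither gene's groups overlapped, and the changes were 0.57 ± 0.11 for DICER1-AS1 and -0.22 ± 0.05 for DICER1. With knockdown DICER1 was also called lower, at -0.18 ± 0.06, while DICER1-AS1 was not called. HNRNPU-AS1 had 213, 219 and 266 CPM in overexpression and 139, 157 and 155 CPM in control libraries. HNRNPU, a nuclear RNA-binding scaffold protein, had 1188, 1119 and 1267 CPM in overexpression and 1424, 1442 and 1392 CPM in control libraries. The changes were 0.63 ± 0.07 for HNRNPU-AS1 and -0.25 ± 0.04 for HNRNPU (edgeR adjusted p = 8.46e-07 and 9.19e-05). RefSeq lists HNRNPU-AS1 only as a synonym of HNRNPU, so it is uncertain whether this pair is an antisense and a sense gene. MCM3AP-AS1 rose by 0.49 ± 0.12 while MCM3AP, which acts in messenger RNA export, changed by -0.23 ± 0.05. ZNF503-AS1 rose by 0.83 ± 0.22 while ZNF503 changed by -0.67 ± 0.06. ZNF503 thus has an antisense gene that rose, ZNF503-AS1, and one that fell, ZNF503-AS2. C17orf76-AS1, the most abundant member, had 537, 526 and 479 CPM in overexpression and 588, 552 and 588 CPM in control libraries. It changed by -0.16 ± 0.05 (edgeR adjusted p = 0.00693) and FAM211A by 0.40 ± 0.12.

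**Figure D2:**
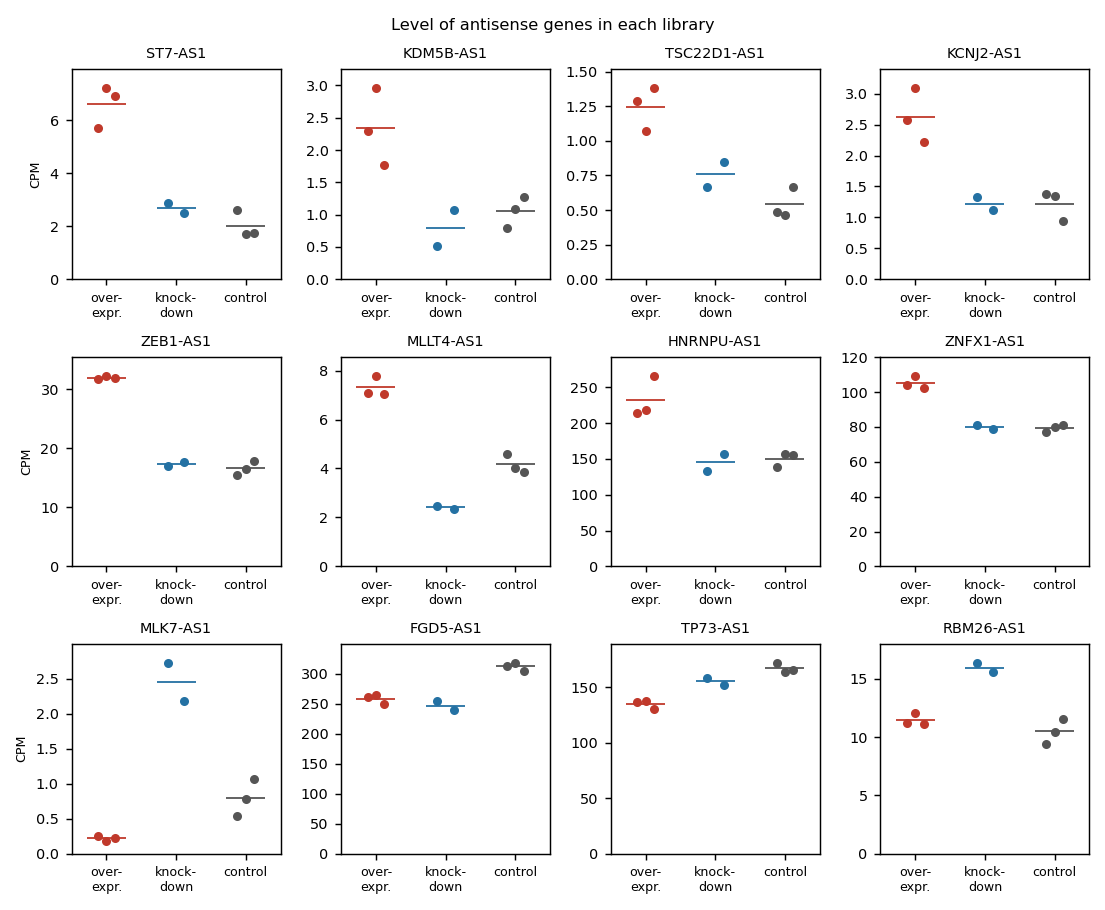
CPM (vertical, from 0, a scale for each panel) of 12 antisense genes in each of the 3 overexpression, 2 knockdown and 3 control libraries, 1 point per library, with a line at the mean of the group. The overexpression libraries stand above both other groups for ST7-AS1, ZEB1-AS1 and ZNFX1-AS1, and MLK7-AS1 is highest in the knockdown libraries, with 2.73 and 2.18 CPM.

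With knockdown against control fewer members were called. 8 of the 88 rose (9.09%) and 10 fell (11.4%), where 19.9% of all genes were called higher and 19.1% lower. Of the 61 scarce members 5 rose (8.2%) and 3 fell (4.92%), against 8.99% higher and 19.0% lower over all genes under 1000 reads. Of the 27 more abundant members 3 rose (11.1%) and 7 fell (25.9%), against 23.3% higher and 19.1% lower over genes of 1000 reads or more. The median log2 fold change was -0.03 over the members, 0.03 over the partners and -0.00095 over all genes, and 41 members (46.6%) had a positive sign. The partners gave 23 higher and 21 lower of 87. Both comparisons share the control libraries, so their values are given side by side without a measure of their likeness.

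MLK7-AS1 had 2.73 and 2.18 CPM in knockdown and 0.532, 0.777 and 1.07 CPM in control libraries, separate groups with a change of 1.72 ± 0.25 (edgeR adjusted p = 1.89e-05). ZAK changed by 0.09 ± 0.06 and was not called. RBM26-AS1, antisense to an RNA-binding protein of the nuclear exosome adaptor complexes, had 16.4 and 15.6 CPM in knockdown and 9.44, 10.5 and 11.6 CPM in control libraries. It rose by 0.62 ± 0.10 (edgeR adjusted p = 3.7e-05) and RBM26 by 0.17 ± 0.06. FBXL19-AS1 had 66 and 61.2 CPM in knockdown and 52.2, 52.7 and 54.6 CPM in control libraries. It rose by 0.26 ± 0.06, and FBXL19, which binds CpG islands, was not called at -0.12 ± 0.07. HOXB-AS3 rose by 0.54 ± 0.14, BDNF-AS1 by 0.67 ± 0.25 and THAP7-AS1 by 0.44 ± 0.13, and of the 8 these 3 also rose with overexpression. UCKL1-AS1 rose by 1.13 ± 0.35, and LPP-AS2 by 0.45 ± 0.17 while LPP, a focal adhesion protein, changed by -0.24 ± 0.08.

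MLLT4-AS1 had 2.47 and 2.34 CPM in knockdown and 4.61, 4.04 and 3.87 CPM in control libraries, a change of -0.80 ± 0.16 (edgeR adjusted p = 0.000491). MFI2-AS1 had 5.83 and 5.64 CPM in knockdown and 8.11, 8.02 and 9.48 CPM in control libraries. It changed by -0.56 ± 0.13 while MFI2 rose by 0.26 ± 0.10, and for both antisense genes the groups were separate. BOLA3-AS1 had 13.1 and 15.4 CPM in knockdown and 18.9, 17.4 and 18.2 CPM in control libraries, a change of -0.37 ± 0.09, with BOLA3, a mitochondrial factor for iron-sulfur clusters, at 0.05 ± 0.08. FGD5-AS1 changed by -0.34 ± 0.05 (edgeR adjusted p = 2.64e-05) and OIP5-AS1 by -0.30 ± 0.07, the second beside a rise of 0.31 ± 0.09 in OIP5, a protein of the centromere. FAM13A-AS1 changed by -0.84 ± 0.25, MAFG-AS1 by -0.37 ± 0.14, ZNF503-AS2 by -0.36 ± 0.09, TTC28-AS1 by -0.21 ± 0.08 and MAGI2-AS3 by -0.20 ± 0.07.

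Several knockdown calls were lost when 1 library was left out, and with a single knockdown library left that library is assumed to vary like the other groups. Without knockdown 2 the adjusted p was 0.456 for FAM13A-AS1, 0.13 for BOLA3-AS1, 0.0913 for FBXL19-AS1, 0.0611 for HOXB-AS3, 0.155 for THAP7-AS1 and 0.175 for UCKL1-AS1. FAM13A-AS1 then changed by -0.30, since its knockdown libraries had 0.983 and 2.02 CPM. Without knockdown 3 it was 0.0544 for ZNF503-AS2 and 0.2 for LPP-AS2. LPP-AS2 was also lost without control 1 or 2, at 0.0975 and 0.109, UCKL1-AS1 without control 2, at 0.0793, and THAP7-AS1 without control 1, at 0.0768. BDNF-AS1, MAFG-AS1 and MAGI2-AS3 were lost without either knockdown library and without control 1 or 2, at adjusted p values from 0.0601 to 0.275, from 0.0609 to 0.134 and from 0.0646 to 0.305. TTC28-AS1 was lost without either knockdown library and without control 1 or 3, at 0.116 to 0.181.

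Set side by side, 44 of the 88 members were called in neither comparison with control, and 21 rose with overexpression without being called with knockdown. MAGI2-AS3, MFI2-AS1 and MLLT4-AS1 rose with overexpression and fell with knockdown, and MLK7-AS1 did the opposite. FGD5-AS1, MAFG-AS1, OIP5-AS1 and ZNF503-AS2 fell in both. Joint shares over all genes were not computed, and both comparisons share the control libraries. These joint counts therefore cannot be set against the background. In the direct contrast of overexpression against knockdown, 31 members were higher (35.2%) and 11 lower (12.5%), against 29.3% and 28.1% of all genes. The largest differences were -3.48 ± 0.33 for MLK7-AS1, 1.98 ± 0.57 for C20orf166-AS1, 1.74 ± 0.29 for KDM5B-AS1, 1.60 ± 0.14 for MLLT4-AS1, 1.26 ± 0.17 for ST7-AS1 and 1.2 ± 0.12 for MFI2-AS1. Of these, C20orf166-AS1 passed the filter on low counts only through overexpression libraries. NPPA-AS1 was lower by -0.95 ± 0.29, UCKL1-AS1 by -0.81 ± 0.33, HOXA-AS3 by -0.50 ± 0.19 and LPP-AS2 by -0.48 ± 0.17. Some of these calls were lost when a library was left out. Without knockdown 2 this held for C20orf166-AS1, then at 1.58, for NPPA-AS1, at -0.69, for UCKL1-AS1, at -0.65, and for HOXA-AS3, at -0.50. UCKL1-AS1 was also lost without knockdown 3, at -0.91, or overexpression 2 or 3, at -0.76 and -0.74. HOXA-AS3 was also lost without knockdown 3 or overexpression 2, at -0.50 and -0.45, and LPP-AS2 without these, at -0.37 and -0.43.

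Some antisense genes, most from the list of known roles, gave no call in either comparison with control. CDKN2B-AS1, known as ANRIL and tied to silencing of the INK4 locus, had 5.88, 4.39 and 5.52 CPM in overexpression, 6.12 and 5.9 CPM in knockdown, and 6.21, 4.61 and 5.34 CPM in control libraries. Its groups overlapped, at -0.05 ± 0.14 with overexpression and 0.15 ± 0.15 with knockdown. CDKN2B, the cell cycle inhibitor p15, rose by 0.38 ± 0.08 with overexpression and by 0.66 ± 0.08 with knockdown. DLX6-AS1, known as Evf2 in mouse where it acts on the neighbouring homeobox genes, was at 0.04 ± 0.19 with overexpression and 0.13 ± 0.20 with knockdown. HOXD-AS1 had 43.5, 46.7 and 46.8 CPM in overexpression, 45.7 and 44.9 CPM in knockdown, and 41.7, 40.4 and 42.5 CPM in control libraries. Both treated groups lay above the controls, but neither change was called (0.14 ± 0.06 with an edgeR adjusted p of 0.0599, and 0.13 ± 0.06 with one of 0.121). HOXD-AS2 was at -0.02 ± 0.18 and 0.13 ± 0.19, and HOXA-AS3 at -0.13 ± 0.19 and 0.37 ± 0.19. FMR1-AS1, named here after its values were seen because MOV10 binds FMRP, was at 0.18 ± 0.53 with overexpression and -0.57 ± 0.63 with knockdown on 61 reads in total, so a change could not be resolved at this depth. FMR1 changed by -0.25 ± 0.05 with overexpression and by -0.15 ± 0.06 with knockdown, and both were called. The uncalled members ran from -0.53 for PROX1-AS1 to 1.02 for GRIK1-AS2 with overexpression, and from -1.04 for SAMD12-AS1 to 0.75 for SMAD5-AS1 with knockdown. The median standard error was 0.17 over the members and 0.07 over all genes with overexpression.

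Across the 76 pairs in which both genes were tested, signs were compared with those of other neighbours. With overexpression 41 pairs (53.9%) had the same sign, beside 52.6% of 5722 pairs of neighbouring genes on opposite strands. The rank correlation of the log2 fold changes across the pairs was 0.17, and across the neighbouring pairs it was 0.06. The points share libraries and controls, so no p is given. Both genes were called upward in 9 pairs, both downward in 4 and in opposite directions in 5. Among the 1450 neighbouring pairs with both genes called, 55.4% had the same sign. In 12 pairs the antisense gene rose with a partner that was not called, and in 19 the partner was called without the antisense gene. With knockdown 42 pairs (55.3%) had the same sign, beside 51.3% of the neighbouring pairs, and the rank correlation was 0.08. Both genes were called in the same direction in 4 pairs and in opposite directions in 3, which were LPP-AS2, MFI2-AS1 and OIP5-AS1 with their partners. Among the 928 neighbouring pairs with both genes called, 54.2% had the same sign. In the direct contrast of overexpression against knockdown 36 pairs (47.4%) had the same sign, beside 52.7% of the neighbouring pairs, and the rank correlation was 0.04, beside 0.07. There both genes were called higher in 11 pairs, lower in 4 and in opposite directions in 12. Among the 1977 neighbouring pairs with both genes called, 55.4% had the same sign. The 12 included BOLA3-AS1 (0.54 ± 0.09) with BOLA3 (-0.42 ± 0.08) and ST7-AS1 (1.26 ± 0.17) with ST7 (-0.26 ± 0.07). In the 12, ARHGEF26-AS1, FLVCR1-AS1, KTN1-AS1, LPP-AS2, SLC25A5-AS1 and ZNF503-AS1 lost the call when 1 library was left out.

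**Figure D3:**
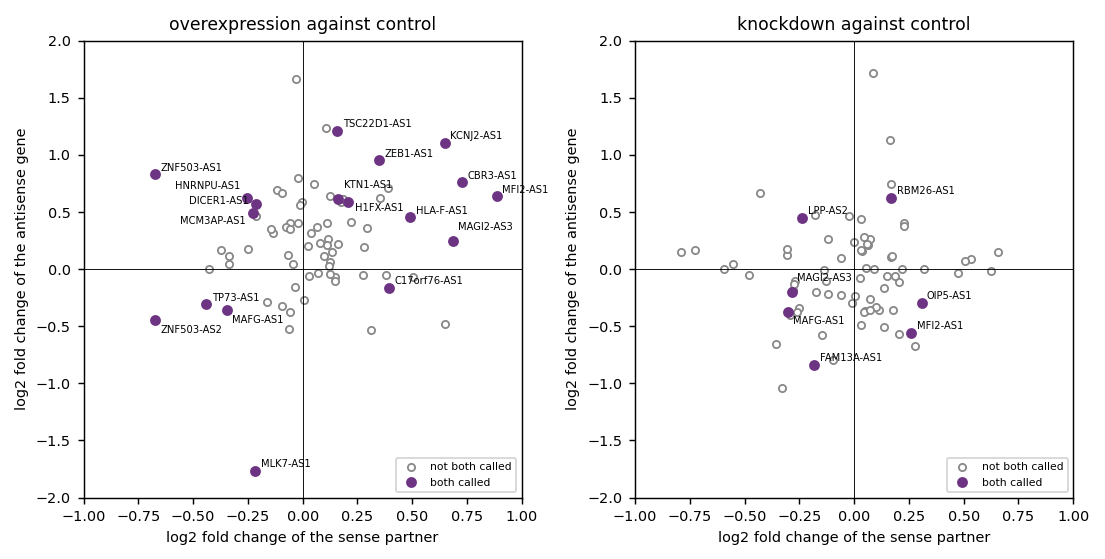
Log2 fold change of the antisense gene (vertical) against that of its sense partner (horizontal) for 76 pairs, overexpression against control on the left and knockdown against control on the right, with pairs named where both genes were called. Points fall on both sides of 0 on both axes of both panels, with 41 pairs of the same sign with overexpression and 42 with knockdown.

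The ratio of antisense to sense reads within a library does not depend on its depth. It was computed as a log2 ratio with 0.5 reads added. With overexpression the ratio of 34 of the 76 pairs (44.7%) did not overlap between the groups, above control in 26 and below in 8, while 57.1% of the neighbouring pairs did not overlap. With knockdown this held for 41 pairs (53.9%), 23 above and 18 below, against 62.5% of the neighbouring pairs. The share was thus lower among antisense pairs than in the background, but the neighbouring pairs were not matched for depth. The median standard error with overexpression was 0.17 over the members and 0.07 over all genes, and the part of depth in the lower share was not tested. Groups of 2 and 3 libraries separate more readily than groups of 3 and 3, so the shares of the comparisons are not on the same scale. For DICER1-AS1 the log2 ratio was -4.20, -3.95 and -4.20 in overexpression, -5.05 and -4.75 in knockdown, and -4.93, -5.09 and -4.66 in control libraries. For HNRNPU-AS1 it was -2.48, -2.35 and -2.25 in overexpression, -3.58 and -3.31 in knockdown, and -3.36, -3.20 and -3.16 in control libraries. In both pairs the overexpression libraries lay above all others, while knockdown overlapped control. How reads divide between HNRNPU-AS1 and HNRNPU remains uncertain. For BOLA3-AS1 the ratio was -0.01, -0.13 and 0.10 in overexpression, -1.12 and -0.83 in knockdown, and -0.59, -0.64 and -0.46 in control libraries, with all 3 groups separate. C17orf76-AS1 ran the other way, with 6.33, 6.07 and 6.06 in overexpression, 7.27 and 7.40 in knockdown, and 6.77, 6.80 and 6.54 in control libraries. For MAGI2-AS3, which rose less than MAGI2, it was 1.98, 2.00 and 1.99 in overexpression, 2.43 and 2.63 in knockdown, and 2.50, 2.43 and 2.36 in control libraries, so overexpression lay below both other groups.

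**Figure D4:**
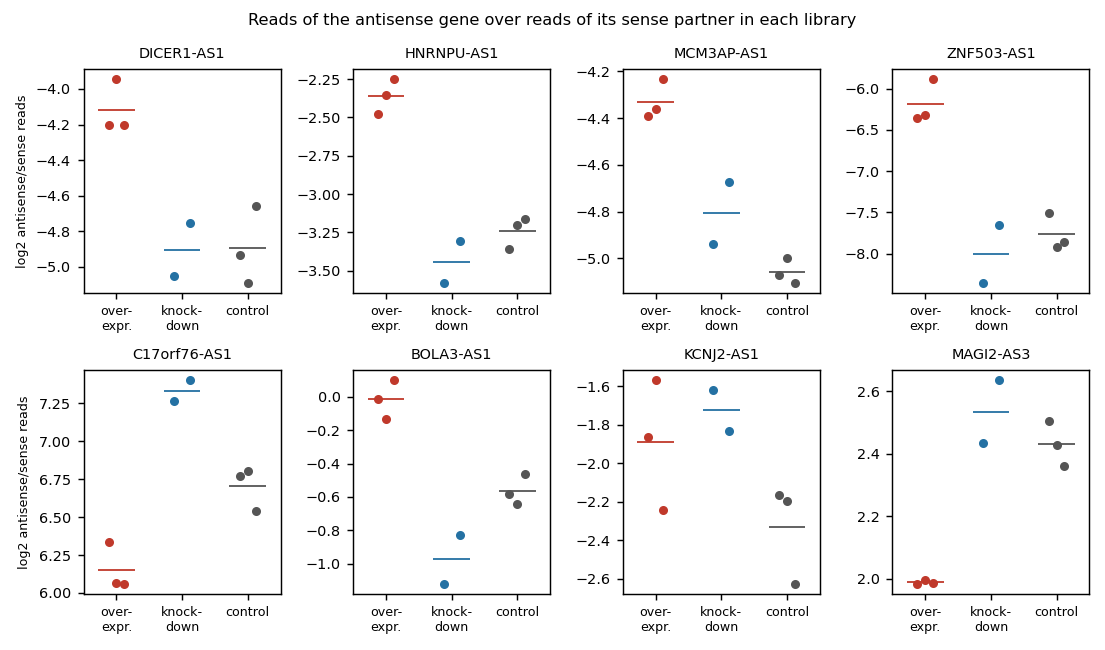
Log2 ratio of antisense to sense reads (vertical, a scale for each panel that does not start at 0) in each overexpression, knockdown and control library for 8 pairs, 1 point per library, with a line at the mean of the group. The overexpression points stand above control for DICER1-AS1, HNRNPU-AS1, MCM3AP-AS1, ZNF503-AS1 and BOLA3-AS1, and below it for C17orf76-AS1 and MAGI2-AS3.

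Genes of the nuclear RNA exosome, of early termination and of double-stranded RNA binding, editing and sensing were described from 3 lists. Over all genes 25.2% were called higher and 24.1% lower with overexpression, and 19.9% higher and 19.1% lower with knockdown. Of 25 genes of the nuclear RNA exosome and its adaptors, 2 rose and 8 fell with overexpression, with a median log2 fold change of -0.04. EXOSC10, its nuclear nuclease, changed by -0.25 ± 0.05, and SRRT, which links the cap to the exosome, by -0.28 ± 0.05. With knockdown 7 rose and 2 fell, with a median of 0.08, and EXOSC10 rose by 0.16 ± 0.05 and SRRT by 0.35 ± 0.05. Of 23 genes of early termination and promoter-upstream transcription, 1 rose and 11 fell with overexpression, with a median of -0.12, and those that fell included the nuclease XRN2 (-0.22 ± 0.05) and the elongation factor SUPT5H (-0.27 ± 0.05). With knockdown 11 rose and 2 fell, with a median of 0.16. Of 22 tested genes that bind, edit or sense double-stranded RNA, 4 rose and 13 fell with overexpression, with a median of -0.18. Among those that fell were the editing enzyme ADAR (-0.24 ± 0.04), the kinase gene EIF2AK2 (-0.18 ± 0.06) and DICER1, while IFIH1 and TLR3, sensors of double-stranded RNA, rose by 0.66 ± 0.13 and 0.61 ± 0.24. With knockdown 4 rose and 5 fell, with a median of 0.02. Whether any of these moved with the antisense genes was not tested.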

How the data were processed

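RNA-seq was analysed for 3 overexpression, 2 knockdown and 3 control libraries of HEK293F cells. The authors deposited raw read counts for each gene symbol. The submitters' processing notes name TopHat2 2.0.8, Trimmomatic 0.22, CASAVA 1.8.2, SAMtools 0.1.18, HTSeq 0.5.3p9 and edgeR, and the build hg19. Neither the strand setting nor the handling of multiply aligned reads is given in the sources used here. The groups come from the sample titles.

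Tests were run in R 4.3.3 with edgeR 4.0.16 (TMM, filterByExpr with its defaults of 10 for the count, applied as the matching CPM in at least 2 libraries, and 15 reads in total, glmQLFit, quasi-likelihood F test, two-sided, Benjamini-Hochberg over 15254 genes), with 1 mean per group in a joint fit of the 8 libraries. CPM values use TMM-scaled library sizes. The script was tested on simulated data. Replicate libraries differed by a chi-square per gene of 1.85 to 7.81, so each was counted separately.

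Symbols were matched to GENCODE 29, 20164 by name and 1537 through an identifier or older symbol. It belongs to GRCh38 and not hg19, so only its lengths, gene types and arrangements were used, and printed windows are RefSeq's on GRCh38.p14. Named genes are MOV10, the 6 most abundant members, up to 10 members called in each direction in each comparison with control and 5 in the direct contrast (largest absolute log2 fold change), their partners, pairs called in opposite directions, those at the 15-read threshold, and a list of antisense genes with known roles. The remaining called members were named as well. The members and lists were chosen with earlier results of these data known. Alternatives were other size factors, library totals, count filters, DESeq2 1.42.0, limma-voom (limma 3.58.1), only the compared groups, a replicate block, an adjusted p of 0.01, a test against a fold of 1.2, thinning, and leaving out each library.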

Additional observations from a re-analysis of the deposited data

How the results depend on the processing

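No called member reversed its sign in the settings run. Of the called members, 18 of 37 kept the call in all of them, libraries left out included, with overexpression against control, 4 of 18 with knockdown against control and 20 of 42 with overexpression against knockdown. Without 1 library 10, 12 and 20 of them lost it in these 3 comparisons. Against a fold of 1.2, overexpression against control gave 16 members higher, 2 lower and 12 partners, in place of 27, 10 and 44. Knockdown against control then gave 2 higher, 2 lower and 10 partners, in place of 8, 10 and 44, and overexpression against knockdown gave 3 lower and 19 partners, in place of 11 and 56. DESeq2 called 6 members lower with overexpression, 5 higher with knockdown and 6 lower in the direct contrast. At an adjusted p of 0.01 these were 6, 5 and 6, with 6 lower and 21 partners with knockdown. Thinning to the shallowest library left 5 higher with knockdown and 7 lower in the direct contrast, and library totals left 6 lower there. The cause was not tested. Leaving out 1 library gave 21 to 27 members higher and 6 to 10 lower with overexpression, the 6 without control 2, and 38 to 50 partners. With knockdown it gave 3 to 9 higher, 5 to 11 lower and 16 to 50 partners. Without knockdown 2 these were 3, 5 and 16. Without knockdown 3 there were 6 lower and 26 partners, and without control 2 there were 5 higher and 27 partners. The direct contrast gave 18 to 29 higher, 5 to 11 lower and 43 to 62 partners, the 18 and 5 without knockdown 2. Pairs with separate ratios numbered 38 to 42 with overexpression and 44 to 53 with knockdown, in place of 34 and 41. Leaving out a library can only keep or raise this number. A minimum of 10 or 30 reads would give 110 or 93 members. Between samples with the same replicate number, deviations from the group means correlated weakly (r from -0.0847 to 0.09003). Deviations in groups of 2 or 3 libraries constrain each other, so these values cannot show whether such samples share a culture or batch. With the replicate block 25 members rose and 9 fell with overexpression, 8 rose and 8 fell with knockdown, with 31 partners called, and 27 were higher and 9 lower in the direct contrast.

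Depth limits the scarce members. The median standard error of the members was 0.17 with overexpression, against 0.07 over all genes.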

Other observations

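Other noncoding symbols were described by the same fit. Over all genes 25.2% were called higher and 24.1% lower with overexpression, and 19.9% higher and 19.1% lower with knockdown. Over genes under 1000 reads in total these were 25.9%, 8.57%, 8.99% and 19.0%. Of 144 symbols that begin with LINC0, 39 were tested. With overexpression against control 11 rose and 2 fell, with a median log2 fold change of 0.23, and with knockdown against control 5 rose and 10 fell, with a median of -0.15. LINC00085, LINC00086, LINC00173, LINC00277, LINC00341 and LINC00478 rose with overexpression and fell with knockdown, and LINC00174 did the opposite. Both comparisons share the control libraries. Of 12 SNHG symbols, hosts of small nucleolar RNAs, 3 rose and 0 fell with overexpression, and 1 rose and 4 fell with knockdown. Among the 3 tested intronic transcripts (-IT) ANP32A-IT1 rose with overexpression and fell with knockdown, and among the 2 tested overlapping transcripts (-OT) ST7-OT4, from the locus of ST7-AS1, rose with overexpression. Neither of the 2 antisense symbols without a number was called in either comparison.

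Without the filter on low counts, LY86-AS1 was at 2.37 with knockdown (edgeR adjusted p = 0.0186), and ATPAF1-AS1 and PVRL3-AS1 were at 2.39 and 1.60 with overexpression (edgeR adjusted p = 0.0131 and 0.0232), on 19, 25 and 43 reads in total.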
